A study of Mus musculus with 2 samples.

Results

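Temperature-responsive genes were followed in single mouse fibroblasts sorted on a circadian reporter. The group was chosen by name and holds 10 of the 33757 features of the count table. The RNA-binding proteins Cirbp and Rbm3 are known to be raised by mild cold. The chaperones Hspa1a, Hspa1b, Hspa8, Hsph1, Hsp90aa1, Dnajb1, Hspe1 and Hspd1 belong to the heat shock system, and most of them are induced by heat. The cells were NIH3T3-Rev-VNP1-H2B-iRFP, 1 derivative of the NIH3T3 fibroblast line which carries a Venus reporter of Nr1d1 (the clock repressor Rev-erb alpha, as its name in the labels says) and an H2B-iRFP fusion, a nuclear marker in the near infrared. All cells were grown at 37 °C and 5% CO2 for about 5 days to 95% confluency, and neither their clocks nor their temperature were manipulated. They were detached with trypsin before the sort, so every cell had passed through the same handling. RNA of single cells was read by FLASH-seq, which covers whole transcripts, on 2 plates of 384 wells.

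Cells were grouped by 4 sort gates along Venus fluorescence, from gate 1 (dim) to gate 4 (bright). Plate 1 held only the high RFP sort and plate 2 only the low RFP sort, so H2B-iRFP and plate cannot be told apart. Well position followed the gate as well, with 6 columns per gate in the same places on either plate, so gate and plate position cannot be told apart. After filters 762 of 768 cells remained, 383 on plate 1 and 379 on plate 2, with 151173 to 1618022 counts per cell. Counts were summed over the cells of each plate and gate, which gave 8 sums, and levels are in CPM (counts scaled to a fixed library total of 1000000). The plate was the replicate (n = 2), and nothing in the labels says that the plates came from separate cultures. The p-values set the pattern over gates against how far it differed between these plates, apart from their difference in level. In edgeR that spread is also drawn toward the spread of all genes. A gene's p-value therefore does not rest on its own values on these plates alone. Nr1d1 itself rose from 60.9 and 68.7 CPM in gate 1 to 1266 and 1169 CPM in gate 4 (plates 1 and 2). All 8 fibroblast markers listed were detected, with Col1a1 at 8556 and 8347 CPM, but they too moved along Venus in the test described below: 5 fell, 2 rose and 1 was not called. Thy1 went from 79.8 ± 8.03 CPM (SD, n = 2 plates) in gate 1 to 31.2 ± 0.0628 in gate 4, and the summed level of the 8 from 24850 and 24016 CPM to 20119 and 21358. Of the markers of other cell types, Ptprc, Epcam and Krt18 were at 0 on 1 of the plates and at 0.00311 to 0.00624 CPM on the other. Low levels of the macrophage gene Lyz2 (7.71 and 8.61 CPM) and the epithelial gene Cdh1 (4.15 and 5.37 CPM) were present, and Lyz2 rose along Venus, from 7.07 ± 1.71 to 11.7 ± 1.19 CPM (adjusted p = 0.0276, edgeR). The part of these shifts in the trends of the temperature-responsive genes was not tested.

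As background, the proteins Cirbp and Rbm3 bind RNA and are linked to mRNA stability and translation in the cold, and Cirbp is known to affect the level of clock transcripts. Heat shock factor 1 binds inverted repeats of the letters GAA, called heat shock elements, and raises chaperone genes when unfolded proteins accumulate. In the body, daily temperature cycles are known to move both sets of genes in opposite directions, and the same sets can carry temperature timing to peripheral clocks.

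The start-site windows that bear on the results below are shown first. RefSeq windows (GRCm38.p6, from 250 bases before to 50 after the start) were matched for 7 of the 10 genes, all but Rbm3, Hspa8 and Hsp90aa1. The stretches end at the base before the start and run 5′ to 3′. Capitals mark a heat shock element of 2 or more units (GAANNTTC or TTCNNGAA), or the letters TCCCCGCC on either strand, a string known as a mild cold response element from the Cirbp promoter. The first pair is shown because Hspe1 and Hspd1 were the most tightly linked of these genes across cells and lie head to head. The second pair shows how little separates Hspa1a from Hspa1b. Cirbp is shown as the gene with the largest called trend.
Hspe1, chr1:55087998-55088147, plus strand: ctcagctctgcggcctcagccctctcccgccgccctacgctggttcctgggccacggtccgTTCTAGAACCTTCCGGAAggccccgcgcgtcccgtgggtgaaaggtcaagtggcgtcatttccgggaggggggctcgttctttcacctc
Hspd1, chr1:55087933-55088082, minus strand: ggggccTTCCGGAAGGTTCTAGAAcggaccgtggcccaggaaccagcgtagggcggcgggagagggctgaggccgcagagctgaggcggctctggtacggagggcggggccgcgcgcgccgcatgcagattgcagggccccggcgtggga
Hspa1a, chr17:34972157-34972306, minus strand: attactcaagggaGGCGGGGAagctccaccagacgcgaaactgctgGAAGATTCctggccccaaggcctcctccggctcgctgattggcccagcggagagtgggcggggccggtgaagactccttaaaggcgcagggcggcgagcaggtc
Hspa1b, chr17:34959239-34959388, minus strand: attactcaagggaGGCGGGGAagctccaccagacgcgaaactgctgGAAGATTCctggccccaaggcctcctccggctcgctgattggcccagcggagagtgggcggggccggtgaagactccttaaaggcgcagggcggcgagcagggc
Cirbp, chr10:80167589-80167838, plus strand: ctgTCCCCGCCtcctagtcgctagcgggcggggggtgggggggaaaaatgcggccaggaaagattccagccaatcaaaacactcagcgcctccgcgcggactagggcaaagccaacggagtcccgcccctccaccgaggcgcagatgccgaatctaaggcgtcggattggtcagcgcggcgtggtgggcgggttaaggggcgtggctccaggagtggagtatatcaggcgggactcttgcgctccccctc

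Hspe1 and Hspd1 share the same run of capitals, read from opposite strands, between their start sites. It holds the 3-unit element, in which GAA, TTC and GAA follow each other with NN between them; it was searched on both strands and contains the 2-unit elements. Cirbp, Hsph1, Dnajb1 and Hspd1 have 2 start-site windows each, so the 7 genes have 11 windows, and the Hspd1 window shown is the one of 2 that holds a heat shock element. The 3-unit element was found in 0.603% of 32851 windows of the same length and in 4 of these 11. These 4 are not separate finds, since Hspe1 and Hspd1 share their run. The 2 Hsph1 windows overlap and hold the same element, after the start site, at 36 in 1 window and 15 in the other. Counted by gene, in any window, it was found in 0.662% of 27025 genes and in 3 of the 7: Hspe1, Hspd1 and Hsph1. A 2-unit element stood in 15.1% of all windows and 6 of the 11, or in 17.0% of all genes and 5 of the 7, with Cirbp and Dnajb1 the exceptions. Hspa1a and Hspa1b each have GAANNTTC at -104, counted from the start site, and their 300-base windows are identical at 296 bases (98.7%). TCCCCGCC occurred in 6.19% of all genes and in 4 of the 7, in 1 window each: Cirbp at -247, Hspa1a and Hspa1b at -137, and Dnajb1 after a start site. The E-box CACGTG, the site known to be bound by the clock activators, occurred in 8.09% of all genes and in Hsph1 and the Hspd1 window not shown. These are letter matches and do not show binding.

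Per kilobase of exon, the constitutive heat shock cognate Hspa8 had the highest level, with a median of 376 CPM per kb over the 8 sums (348 to 421). The mitochondrial pair followed, with Hspe1 (the HSP10 co-chaperonin) at 252 (224 to 288) and Hspd1 (the HSP60 chaperonin) at 200 (178 to 259), and their ranges overlapped. Hsp90aa1, the inducible cytosolic HSP90, stood at 62.9 (58.4 to 90.7) and Rbm3 at 27.3 (22.7 to 33.0). Cirbp at 20.6 (14.4 to 23.6) and Hsph1, an HSP110 nucleotide exchange factor, at 19.2 (16.7 to 23.6) did not separate, and the range of Rbm3 also reached theirs. Dnajb1, an HSP40 co-chaperone of HSP70, stood at 13.3 CPM per kb (10.7 to 15.2), just reaching the lowest value of Cirbp. The strictly heat-inducible HSP70 genes were near the floor, with Hspa1b at 0.202 and Hspa1a at 0.0663 CPM per kb.

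Of the 10 genes, 5 changed along the Venus gates, and the cold-induced pair moved in opposite directions. Cirbp fell and Rbm3 rose toward bright Venus. Among the chaperones Hsp90aa1 and Hspd1 rose and Hspa8 fell. The trend is the slope in log2 level per gate from edgeR's quasi-likelihood test with plate as a block, called at an adjusted p under 0.05 (Benjamini-Hochberg over 18430 genes). All 10 genes passed the filter on low counts. Of all genes tested, 15.4% were called, 6.78% upward and 8.64% downward. Among the 5232 genes whose mean log2 CPM was 5 or more, like the 8 well detected genes here, 30.0% were called. Without normalization factors 57.8% of the called genes rose, against 44.0% with them, and 3 of the 10 genes still rose and 2 fell. The median trend of the 10 genes was 0.08, against 0.00051 for all genes tested, and their median size of trend was 0.094 against 0.081. Both medians of the 10 include Hspa1a and Hspa1b, which were near the floor, with uncalled trends of 0.22 and 0.24. Of the 10 trends 6 were positive, those of Hspa1a and Hspa1b included, so no upward lean of the group is read from the median. Among the genes at 5 or more in mean log2 CPM, a class without Hspa1a and Hspa1b, the median trend was -0.0059 and the median size 0.049.

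**Figure D1:**
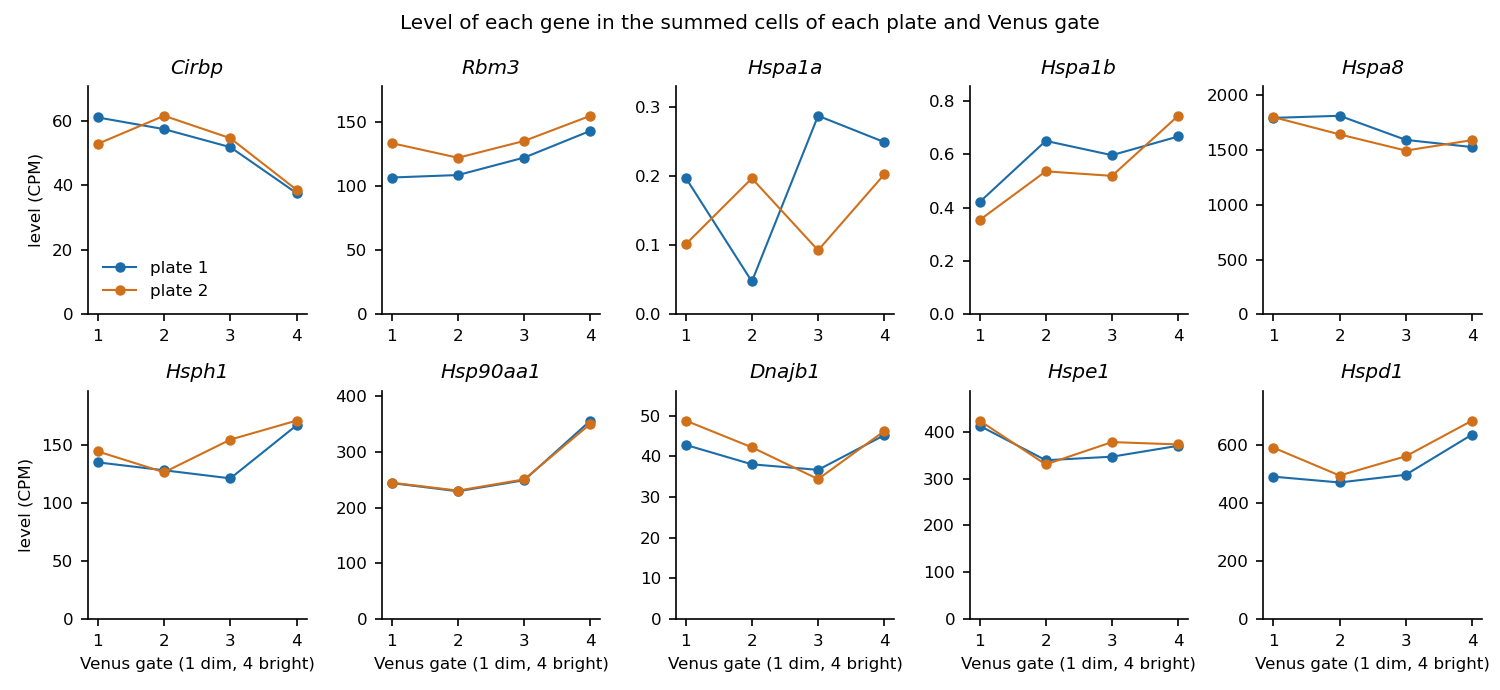
Level in CPM (vertical axes, from 0) of each of the 10 genes in Venus gates 1 (dim) to 4 (bright, horizontal axes), with 1 point for the summed cells of each gate on plate 1 (blue) and plate 2 (orange). Cirbp dropped to 37.6 and 38.6 CPM in gate 4, whereas Hsp90aa1 reached 356 and 351 CPM there.

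Cirbp stood at 61.0 and 52.9 CPM in gate 1 (plates 1 and 2), 57.4 and 61.5 in gate 2, 51.8 and 54.6 in gate 3, and 37.6 and 38.6 in gate 4. Both plates were lowest in gate 4, and no value of gates 1 to 3 reached that range. The trend was -0.21 ± 0.029 (SE) log2 per gate, with an adjusted p of 0.00496 in edgeR. Between gates 4 and 1 the fitted change was -35.7%. Per cell, the median fell from 54.1 and 51.1 CPM in gate 1 to 36.1 and 35.8 CPM in gate 4.

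Rbm3 stood at 107 and 134 CPM in gate 1, 109 and 122 in gate 2, 122 and 135 in gate 3, and 143 and 155 in gate 4. Plate 2 was higher than plate 1 in every gate, and both plates were highest in gate 4. Its trend was 0.094 ± 0.018 log2 per gate (adjusted p = 0.016, edgeR), a fitted change of 19.9% from gate 1 to gate 4. The ratio of Rbm3 to Cirbp counts was 1.75 and 2.53 in gate 1, 1.90 and 1.99 in gate 2, 2.36 and 2.48 in gate 3, and 3.82 and 4.02 in gate 4. On both plates the ratio was thus highest in the brightest gate, although both genes are known to respond to cold in the same direction. The antisense transcript Rbm3os overlaps Rbm3, and it held 352 counts against 82476 for Rbm3.

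Hsp90aa1 had nearly equal levels on the plates in every gate: 244 and 245 CPM in gate 1, 229 and 231 in gate 2, 249 and 251 in gate 3, and 356 and 351 in gate 4. The level was flat over the dimmer gates and stepped up in gate 4. Its trend was 0.15 ± 0.014 log2 per gate (adjusted p = 0.0013, edgeR), the smallest adjusted p of the 10 genes. The step from gate 3 to gate 4 was 0.46 log2 (adjusted p = 0.0283, edgeR), the only single step called among these genes; of all genes, 0.260% were called at that step. None of the 10 was called at the step from gate 1 to gate 2 or from gate 2 to gate 3, where 0.271% and 0.0651% of all genes were.

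Hspd1 stood at 490 and 590 CPM in gate 1, 470 and 494 in gate 2, 497 and 561 in gate 3, and 635 and 683 in gate 4. Gate 4 was highest on both plates and lay above every other sum. The trend was 0.083 ± 0.017 log2 per gate (adjusted p = 0.0172, edgeR). Its partner Hspe1, from the same head-to-head locus, had its highest level in gate 1, at 413 and 424 CPM, and 339 and 330, 347 and 378, and 370 and 373 in gates 2 to 4. Its trend of -0.06 ± 0.017 was not called (adjusted p = 0.0655, edgeR), but its gates differed in the test for any difference (adjusted p = 0.0374, edgeR). The ratio of Hspd1 to Hspe1 counts was 1.19 and 1.39 in gate 1 and 1.72 and 1.83 in gate 4.

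Hspa8 fell from 1794 and 1801 CPM in gate 1, through 1813 and 1643 in gate 2 and 1592 and 1495 in gate 3, to 1527 and 1590 in gate 4. Gates 1 and 2 were above gates 3 and 4 on both plates. Its trend was -0.09 ± 0.017 log2 per gate (adjusted p = 0.0124, edgeR). Hsp90aa1 and Hspa8, which work in the same cytosolic folding pathway, thus moved apart, and the ratio of their counts went from 0.136 on both plates in gate 1 to 0.233 and 0.220 in gate 4. In the GENCODE transcripts 30.2% of the 75-base windows of Hspa8 also occur in Gm15459, whose 397055 counts are 37.3% of those of Hspa8. The trend of Gm15459 was -0.09 ± 0.018 (adjusted p = 0.0153, edgeR), so the share of reads between the copies cannot be told apart but both rows fell.

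The remaining chaperones gave no called trend. Hsph1 stood at 135 and 145 CPM in gate 1 and 167 and 171 in gate 4, with a trend of 0.076 ± 0.029 (adjusted p = 0.123, edgeR). Dnajb1 was U-shaped on both plates: 42.8 and 48.8 CPM in gate 1, 36.7 and 34.4 in gate 3, and 45.2 and 46.2 in gate 4. Its trend was -0.03 ± 0.024 (adjusted p = 0.4, edgeR), and the test for any difference between gates gave an adjusted p of 0.0615. That test called 6 of the 10 genes, the 5 with a trend plus Hspe1, where 8.37% of all genes were called, and 18.0% of those at 5 or more in mean log2 CPM.

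Hspa1a and Hspa1b, the classic heat shock markers, were almost silent. Hspa1a had 62 counts on plate 1 and 47 on plate 2, which is 0.193 CPM (95% exact Poisson interval 0.148 to 0.248) and 0.146 CPM (0.107 to 0.194). It was seen in 24 of 383 and 27 of 379 cells. Hspa1b had 188 and 173 counts and was seen in 31.9% and 27.4% of cells (exact binomial 95% intervals 27.2 to 36.8 and 23.0 to 32.2). The binomial intervals treat each cell as independent, and the Poisson intervals each count. No use of molecular identifiers is stated, and the 62 counts of Hspa1a on plate 1 came from 24 cells. The Poisson intervals can therefore be too narrow. Hspa1b stood at 0.421 and 0.353 CPM in gate 1 and 0.667 and 0.745 in gate 4, a trend of 0.24 ± 0.1 log2 per gate (adjusted p = 0.165, edgeR). The trend of Hspa1a was 0.22 ± 0.27 (adjusted p = 0.661, edgeR). The genes share 1524 windows of 75 bases, or 52.7% of those of Hspa1a and 55.8% of those of Hspa1b, so their split of reads is uncertain. The most counts of the pair in any sum were 75, in gate 4 of plate 2, and the fewest were 36, in gate 1 of that plate.

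The called changes rested largely on the brightest gate. Without gate 4, in a straight-line fit over the other gates, none of the 10 genes was called, and 1.33% of all genes were. The trend of Cirbp was then -0.05 (adjusted p = 0.657, edgeR), that of Hsp90aa1 0.011 (adjusted p = 0.908), that of Rbm3 0.048 (adjusted p = 0.564) and that of Hspd1 -0.02 (adjusted p = 0.866). Hspa8 kept its size, at -0.12 (adjusted p = 0.0735, edgeR). Without gate 1, Cirbp, Rbm3, Hsp90aa1 and Hspd1 were called and Hspa8 was not (adjusted p = 0.135, edgeR), and 5.58% of all genes were. With gate 2 left out only Hspa8 was called, and with gate 3 left out Cirbp and Hsp90aa1. Of all genes, 6.34% and 6.73% were called in these fits. Every fit that left out a gate used a straight line, unlike the main fit, so lost calls cannot be credited to the gate alone. A straight line over all gates did not call Rbm3 (adjusted p = 0.051, edgeR) or Hspd1 (adjusted p = 0.187, edgeR). It gave Cirbp an adjusted p of 0.0411 and Hsp90aa1 one of 0.0494 (edgeR). Without the plate as a block, Cirbp and Hsp90aa1 were called, where Hspa8 (adjusted p = 0.0558, edgeR), Hspd1 (0.0702) and Rbm3 (0.0781) were not. That fit called 9.13% of all genes. With plate 1 or plate 2 left out, every trend kept its sign, and each such fit rests on 1 plate. Leaving out a gate or a group of cells was chosen after seeing the data.

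Part of the cell cycle transcripts rose along the same axis. The summed level of 20 S phase genes was 304 and 377 CPM in gate 1 and 592 and 553 in gate 4, and 10 of the 20 (50%) rose and none fell, with a median trend of 0.36 on plate 1 and 0.15 on plate 2. The 20 G2/M genes summed to 312 and 548 CPM in gate 1, 414 and 794 in gate 2, 442 and 357 in gate 3, and 723 and 757 in gate 4. Of these 6 rose (30%), none fell and 14 were not called, and the median trend was 0.39 on plate 1 but -0.03 on plate 2. Beside the 50% and 30% of these lists, 6.78% of all genes rose, and 12.8% of those at 5 or more in mean log2 CPM. In the 380 cells below their plate's median for these 40 genes, Cirbp kept its trend, -0.20 (adjusted p = 0.0347, edgeR), and so did Hspa8, -0.13 (adjusted p = 0.0107). In those cells the trend of Hsp90aa1 was 0.038 (adjusted p = 0.387, edgeR), that of Rbm3 0.048 (adjusted p = 0.257) and that of Hspd1 0.054 (adjusted p = 0.28). Among these cells 7.39% of all genes were called. The part of the cell cycle in the full trends was not tested further.

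**Figure D2:**
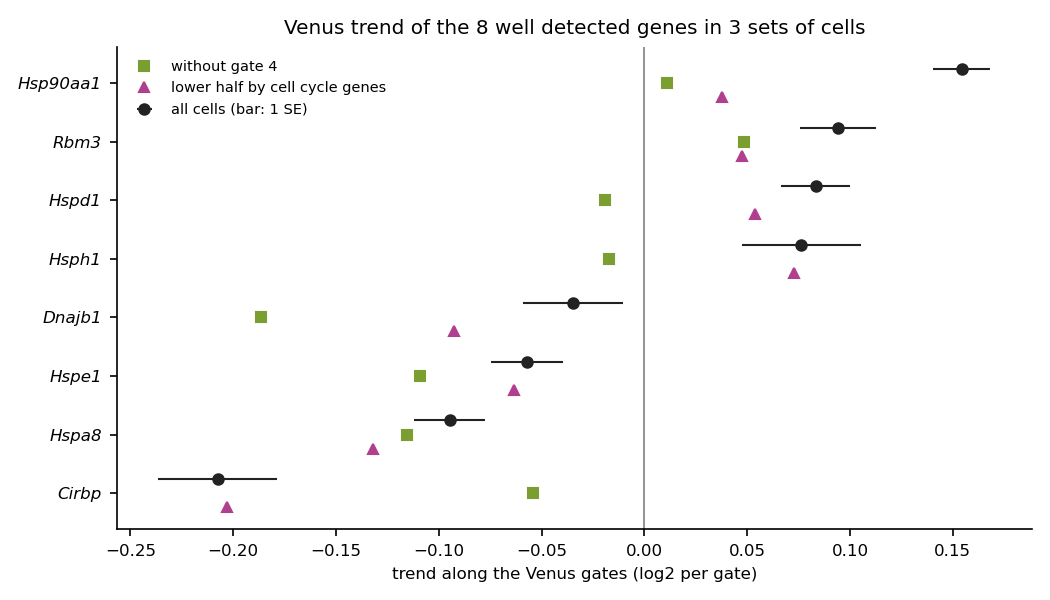
Venus trend in log2 per gate (horizontal axis) of the 8 well detected genes for all cells (black circles, bars of 1 SE), without gate 4 (green squares) and for cells below their plate's median of cell cycle genes (purple triangles). Cirbp and Hspa8 kept their trends in the cells with low cell cycle transcripts, while Hsp90aa1 moved from 0.15 to 0.038.

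Some genes of the wider chaperone network changed along Venus. Of 26 other heat shock factor 1 targets and cytosolic chaperones, 24 were tested, 5 rose, 1 fell and 18 were not called. The share called was 25%, against 15.4% of all genes and 30.0% of those at 5 or more in mean log2 CPM. The median trend of this list was 0.029, against 0.00051 for all genes. The small heat shock protein Cryab rose by 0.15 ± 0.019 log2 per gate (adjusted p = 0.00364, edgeR), the HSP90 activator Ahsa1 by 0.094 and the co-chaperone Bag3 by 0.086. Hspa4 and Stip1, the adaptor between HSP70 and HSP90, also rose, by 0.083 and 0.072; the polyubiquitin gene Ubb fell by 0.06. Hsp90ab1, the constitutive HSP90, had a trend of 0.0052 (adjusted p = 0.855, edgeR), beside 0.15 for its inducible paralog Hsp90aa1.

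The cytosolic chaperonin TRiC, a ring of 8 different subunits that folds actin and tubulin, had 5 of its 8 genes called (62.5%). All 5 rose, where 6.78% of all genes and 12.8% of those at 5 or more in mean log2 CPM did, and the median trend was 0.084. Cct8 rose by 0.16, Tcp1 by 0.093 and Cct7 by 0.089 log2 per gate, and Cct6a and Cct5 rose by 0.084 each (both chosen after their values were seen). The trends of Cct2, Cct3 and Cct4 were -0.01, 0.00 and -0.02, none called. Among 7 mitochondrial chaperones and proteases, 2 were called (28.6%), against 15.4% of all genes and 30.0% of those at 5 or more in mean log2 CPM. Grpel1 rose by 0.11 and Trap1, the mitochondrial HSP90, by 0.089, while Hspa9, the mitochondrial HSP70, had -0.05 (adjusted p = 0.111, edgeR).

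Among the heat shock factors, Hsf1 had a trend of 0.032 (adjusted p = 0.312, edgeR) and Hsf2 -0.03 (adjusted p = 0.683). Of the 4 genes listed 2 rose, where 6.78% of all genes and 12.8% of those at 5 or more in mean log2 CPM did. Hsbp1, a small protein that binds Hsf1, rose by 0.18 (adjusted p = 0.00159, edgeR). Hsf4 rose by 0.47 (adjusted p = 0.0249, edgeR), but has a mean log2 CPM of only 0.13 and was named after its value was seen. Among 11 RNA-binding paralogs and temperature-linked splicing factors none rose and 2 fell (18.2% called), Rbmx by 0.30 and Tra2a by 0.08. The share called was 15.4% of all genes and 30.0% of those at 5 or more in mean log2 CPM. The kinases Clk1 and Clk4, known temperature sensors of splicing, had trends of 0.036 and -0.02, neither called.

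Handling of cells can induce immediate early genes, so 17 of them were counted. Of these 6 fell along Venus, 1 rose and 10 were not called. The share called was 41.2%, against 15.4% of all genes and 30.0% of those at 5 or more in mean log2 CPM. Klf6 fell by 0.20, Zfp36 by 0.18 and Fos by 0.17 log2 per gate, and Ier3 rose by 0.097. Their summed level was 1479 and 1414 CPM in gate 1 and 1376 and 1266 in gate 4. Members went both ways: Jun stood at 58.9 ± 14.4 CPM (SD, n = 2 plates) in gate 1 and 73.8 ± 5.81 in gate 4, and was not called (adjusted p = 0.289, edgeR). The part of handling in the trends of the chaperones was not tested. For reference, 10 of 13 clock genes rose and 2 fell, and Dbp went from 17.4 and 19.2 CPM in gate 1 to 73.1 and 82.5 in gate 4.

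The plates, which carry the RFP sort, differed little. Rbm3 was at 120 CPM on plate 1 and 137 on plate 2, a log2 ratio of -0.19, and Hspd1 at 521 and 582, a log2 ratio of -0.16. The other well detected genes had log2 ratios from -0.12 (Hsph1) to 0.047 (Hspa8). Over the 9014 genes at 3 or more in mean log2 CPM, the central 95% of such ratios ran from -0.33 to 0.19, so all 8 lay inside that range. There is no replicate of a plate, and no test was made.

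Levels also varied across single cells at one temperature. The coefficient of variation was 0.637 and 0.629 for Hsp90aa1, 0.570 and 0.562 for Cirbp, and 0.311 and 0.291 for Hspe1 (plates 1 and 2). Hsp90aa1 ran from a median of 225 and 212 CPM to a maximum of 1275 and 1429 CPM in single cells. For the 6 well detected heat genes, 12 of 383 and 11 of 379 cells lay in the top 5% of their plate for 3 or more of them, and no cell did so for all 6. A further 62 and 63 cells did so for 1 or 2 of them.

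Spearman's rho with the recorded Venus fluorescence over a whole plate was -0.28 and -0.19 for Cirbp, 0.28 and 0.18 for Rbm3, 0.22 and 0.22 for Hsp90aa1, 0.20 and 0.20 for Hspd1, and -0.21 and -0.16 for Hspa8. Over 8506 genes the central 95% of the plate mean ran from -0.23 to 0.25, and the mean for Cirbp, -0.24, was just outside it. After ranking within gates these values were between 0.024 and 0.11 for the same 5 genes. A gate spans a narrow range of Venus, and there even Nr1d1 had 0.31 and 0.26, against 0.90 and 0.90 over whole plates. The central 95% of all genes within gates ran from -0.09 to 0.074, and the plate mean of Hsp90aa1, 0.081, lay outside it, higher than 98.4% of genes. The plate means of Cirbp, Rbm3, Hspa8 and Hspd1 lay inside.

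**Figure D3:**
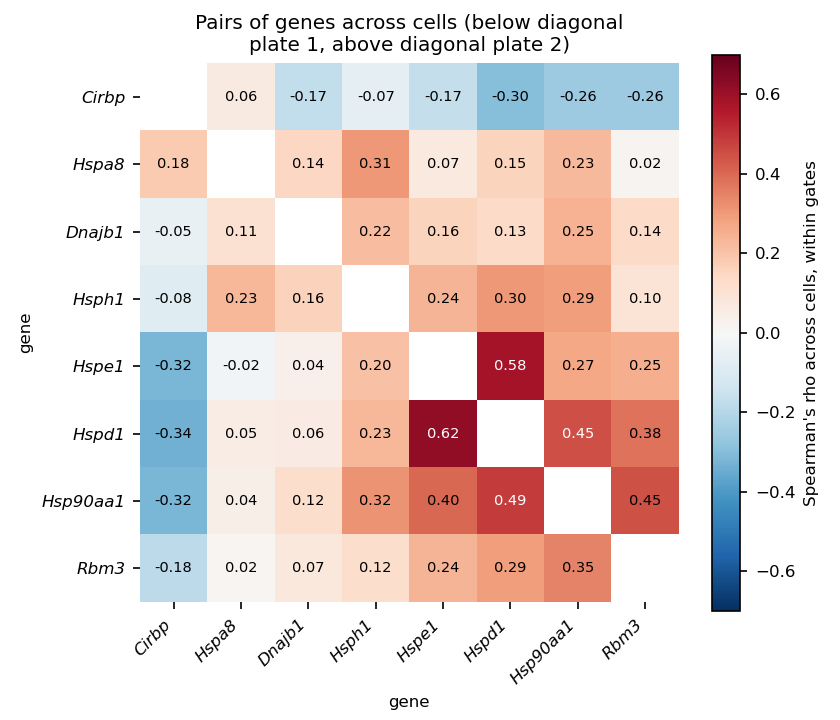
Spearman's rho across cells between pairs of the 8 well detected genes (both axes), ranked within Venus gates, with plate 1 below the diagonal and plate 2 above it; red is positive and blue negative. Hspe1 with Hspd1 was the strongest pair (0.62 and 0.58), and Cirbp was negative with Hspd1, Hsp90aa1 and Rbm3 on both plates.

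Within gates the genes were linked with each other to differing degrees. Hspe1 and Hspd1 had rho of 0.62 and 0.58, Hsp90aa1 and Hspd1 0.49 and 0.45, and Rbm3 and Hsp90aa1 0.35 and 0.45. Rbm3, although cold-induced, had rho of 0.29 and 0.38 with the heat gene Hspd1. Cirbp was negative with Hspd1 (-0.34 and -0.30), with Hsp90aa1 (-0.32 and -0.26) and with Rbm3 (-0.18 and -0.26). The plate mean of Cirbp with Rbm3, -0.22, lay inside the central 95% of the values that either gene had with all 8505 others (-0.27 to 0.23 for Cirbp and -0.22 to 0.29 for Rbm3). Hspa8 had its highest value with its exchange factor Hsph1, 0.23 and 0.31, and only 0.042 and 0.23 with Hsp90aa1. Over the 28 pairs the median was 0.12 and 0.15, and 21 pairs were positive on both plates. By the same measure 5 pairs lay outside the central 95% of both their genes: Hspe1 with Hspd1, Hsp90aa1 with Hspd1, Rbm3 with Hsp90aa1, Hspa8 with Hsph1, and Cirbp with Hspd1. Another 9 lay outside that of 1 gene and 14 inside both. These are descriptions over cells that share plates and gates.

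**Figure D4:**
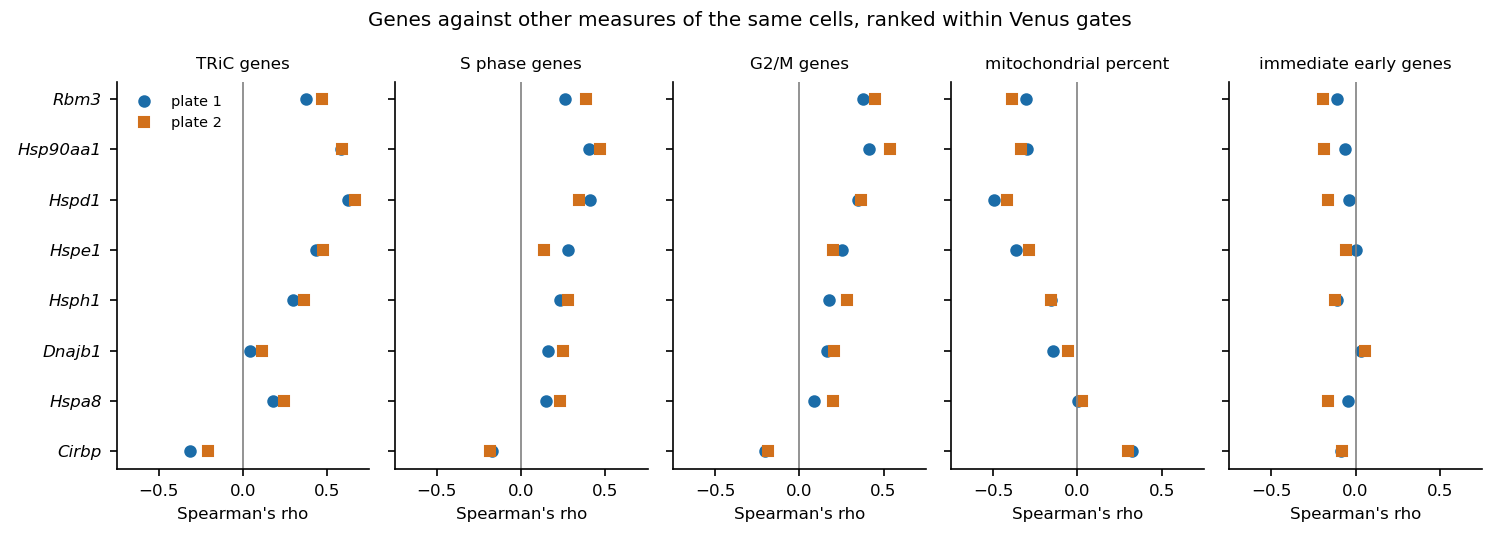
Spearman's rho across cells (horizontal axes) of the 8 well detected genes with the mean log level of TRiC genes, S phase genes, G2/M genes, the mitochondrial share of counts and immediate early genes, ranked within Venus gates, for plate 1 (blue circles) and plate 2 (orange squares). Hspd1 reached 0.62 and 0.66 with TRiC, and Cirbp lay on the opposite side in the first 4 panels.

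Several of these genes followed other measures of the cell. Hspd1 had rho of 0.62 and 0.66 with the TRiC genes, Hsp90aa1 0.58 and 0.59 and Rbm3 0.37 and 0.47. With G2/M genes the values were 0.41 and 0.54 for Hsp90aa1, 0.38 and 0.45 for Rbm3, and -0.20 and -0.19 for Cirbp. The mitochondrial share of counts went the other way, with -0.49 and -0.42 for Hspd1 and 0.32 and 0.30 for Cirbp. Total counts had little relation with these genes, from -0.06 to 0.093 on plate 1 and from -0.07 to 0.046 on plate 2 for the 8 genes. The number of genes detected per cell did move with them, with 0.38 and 0.18 for Hspd1, 0.29 and 0.14 for Hsp90aa1, 0.28 and 0.23 for Hspe1, 0.11 and 0.17 for Rbm3, and -0.20 and -0.15 for Cirbp. Its part in the links between these genes was not tested. Sort time within a gate gave -0.11 and -0.04 for Rbm3, the largest value on plate 1.

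The genes most like each member were sought among 8505 others by mean rho within gates. For Rbm3 they were Cenpm, Snrpf, Cdca3, Knstrn and Lockd (0.50 to 0.48), of which Cenpm, Cdca3 and Knstrn act in mitosis. For Hsp90aa1 they were the nuclear transport GTPase Ran, the tubulin Tuba1b, the translation factor Eif5a, Banf1 and Stip1 (0.60 to 0.55). For Hspa8 they were Gm15459 (0.98, which shares its sequence), Sun2, Mcm7, Hsp90ab1 and Eef2 (0.39 to 0.32 for the last 4). For Hspd1 they were Hspd1-ps3 (0.80, a copy that shares 28.6% of its windows), Nop58, Atic, Eif5a and Cct6a (0.59 to 0.58). For Hspa1a no gene exceeded 0.13, the value of Gpx7, which at 109 counts is no finding.

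For Cirbp the most alike genes were Cd63, Btg1, Cdk4, Psap and Dtx3 (0.48 to 0.43), and all 5 lie on chromosome 10, as Cirbp does. Chromosome position was therefore compared for all 8 well detected genes, after these lists were seen and with their copies left out. Of the 50 genes most like Cirbp, 17 were on chromosome 10, or 34.0%, where 5.10% of the 8494 genes compared lie. For Hspe1 and Hspd1, both on chromosome 1, the counts were 22 and 18 of 50, where 5.70% of the genes lie. Dnajb1 had 11 of 50 on chromosome 8 (5.62% of genes). Hsp90aa1 had 5 (chromosome 12, 3.38%), Hspa8 and Hsph1 2 each, and Rbm3 none on the X chromosome.

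Hspd1 had rho of 0.55 and 0.46 with the mean relative level of the other chromosome 1 genes in the same cells, and Hspe1 0.46 and 0.35. With that mean held, the Hspe1 and Hspd1 pair had a partial rho of 0.49 and 0.51, against 0.62 and 0.58 before. For Cirbp the rho with the mean of all chromosome 10 genes was only 0.070 and 0.089. Its median rho with the 433 chromosome 10 genes taken singly was 0.033, against -0.021 for genes of other chromosomes. By that median, chromosome 10 ranked 2 of 20 chromosomes for Cirbp. Such ranks were not particular to it. The own chromosome ranked 1 for Hsp90aa1, Dnajb1, Hspe1, Hspd1 and Rbm3, 2 for Hspa8 and 7 for Hsph1. For Rbm3 the median was 0.042 with X chromosome genes and 0.012 with others. Cirbp and Rbm3 kept -0.20 and -0.29 with both chromosome means held. Of the 5 chromosome 10 genes most like Cirbp, Dtx3 fell by 0.21, Btg1 by 0.20, Cdk4 by 0.13 and Psap by 0.10 log2 per gate, and Cd63 had -0.03 (adjusted p = 0.132, edgeR). Of 447 chromosome 10 genes at 3 or more in mean log2 CPM, 19.7% fell along Venus, against 14.6% of the genes of other chromosomes, with a median trend of -0.03 against -0.01 for other chromosomes. Chromosomes 1 and 8 differed more from the rest, and not in the direction of a called member. On chromosome 1, 22.3% of 506 genes fell, against 14.4% elsewhere, although Hspd1 rose. On chromosome 8, 23.3% of 503 genes rose, against 9.68% elsewhere, although Dnajb1 was not called. Whether the number of copies of a chromosome varied among these cells was not tested.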

How the data were processed

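Raw counts per gene and cell were deposited by the authors as whole numbers. Per the submitters' processing notes the tools were STAR 2.7.11a, SAMtools, bedtools and HTSeq, with build GRCm39; the annotation, strand use and molecular identifiers are not given in the sources used here. Venus and iRFP intensity values, in arbitrary units, and the sort gate were recorded by the sorter and deposited per cell, per the file headers.

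Cells with at least 1000 genes, at least 0.1 of their plate's median total and at most 25% mitochondrial counts were kept, and their counts were summed per plate and gate. edgeR 4.0.16 (R 4.3.3; trimmed mean of M values, filterByExpr, plate and gate terms, 3 residual degrees of freedom) gave the trend as a contrast over the 4 gate terms. The replicate numbers pair the sums because the sums of 1 number come from the same plate. In data simulated for that test over 18054 genes, 68% of trends of 0.15 and 100% of trends of 0.3 log2 per gate were recovered, with 13 false calls. Each size was given to 100 genes. Smaller trends, such as those of Rbm3, Hspd1 and Hspa8, were not simulated. limma 3.58.1 and DESeq2 1.42.0 served as alternatives, along with no filter, no normalization factors, stricter cells and counts thinned to 300000 per cell. Correlations across cells used ranks within a plate, or within plate and gate. Symbols, exon lengths, chromosomes and 75-base windows came from GENCODE M21 (GRCm38), an older build than the authors', and start-site windows from RefSeq.

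The 10 genes and all lists were chosen with earlier results of these data known. All 10 genes were named; from other lists, at most the 3 largest called rises and falls at 3 or more in mean log2 CPM; and for likeness, the 5 genes with the highest mean rho among those with a mean of at least 10 CPM, detected in at least 50% of cells.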

Additional observations from a re-analysis of the deposited data

How the results depend on the processing

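Over 12 settings (scaling, tool, count filter, plate block, shape of the trend, cell filter, thinning and each plate left out), every called trend kept its sign, and among these settings Cirbp and Hsp90aa1 lost their call only when a plate was left out. Hspa1a had no adjusted p in DESeq2 and too few counts to be tested after thinning. Against 2843 genes and 5 of the 10 called by trend, the fit without the plate block called 1683 and 2, and a straight line over gates 1858 and 3, where Rbm3 (adjusted p = 0.051, edgeR) and Hspd1 (adjusted p = 0.187, edgeR) were lost. Leaving out a plate gave 4 to 264 genes and 0 to 0 of the 10, with no residual spread between plates. Chosen after seeing the data, straight-line fits without gate 1, 2, 3 or 4 gave 1003, 1143, 1209 and 237 genes, with 1, 2 and 0 of the 10 for gates 2, 3 and 4. Cells with low cell cycle transcripts gave 1215 genes and 2 of the 10. For any difference between gates (1542 genes and 6 of the 10), DESeq2 called 3653, no low count filter 2661, no plate block 490 with 2 of the 10, no gate 2 of plate 2 700, and cells with low cell cycle transcripts 557 with 1 of the 10.

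Signs reversed for uncalled fits: without gate 4, Hsph1 had -0.017 and Hspd1 -0.019 log2 per gate, and without gate 1 Dnajb1 had 0.071 and Hspe1 0.052. DESeq2 also called Hspe1 (adjusted p = 0.0208) and Hsph1 (adjusted p = 0.0256). Ranking within gates took the mean rho with Venus fluorescence to 0.030 for Cirbp, 0.052 for Rbm3, 0.052 for Hspa8, 0.081 for Hsp90aa1 and 0.039 for Hspd1; stricter cells gave 0.21 for Hspd1. Cirbp with Rbm3 had a mean rho of -0.22 within gates and -0.24 in thinned cells, against -0.29 over whole plates. The cause of these changes was not tested. Hspa1a and Hspa1b are limited by depth, with 109 and 361 counts in all.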
